A study of Mus musculus with 12 samples.

Results

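The macrophage and granulocyte genes followed here were *Csf1r*, *Adgre1*, *Cd68*, *Lyz2*, *Ptprc*, *Spi1*, *Mpo*, *Elane*, *S100a8*, and *S100a9*, 10 of the 38127 genes counted, taken by their symbols in the name column of the count tables. They were compared over 12 RNA-seq libraries of sorted mouse fetal liver (FL) cells to see how much myeloid RNA cells sorted as CD45-negative held. All cells came from C57BL/6 embryos and were Ter119- and CD45-, where Ter119 marks maturing erythrocytes and CD45 is the leukocyte surface protein that *Ptprc* encodes. Per the study's methods, FL suspensions were depleted of Ter119+ and CD45+ cells on magnetic columns before the sort. There were 4 groups of 3 libraries: P2 cells at embryonic day (E) 14.5, which were CD54-CD31-Kit+CD24+; CD31+ cells at E14.5, which were CD54+CD31+; and CD54+CD31- cells at E14.5 and at E18.5. The study treats P2 cells as erythroid progenitors, CD31+ cells as endothelial, and CD54+CD31- cells as hepatoblasts, which it also names CD324+. It gives 3 independent litters for the E14.5 groups, and whether E18.5 embryos were pooled is not given in the sources used here.

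Myeloid cells of the embryo arise from yolk sac and FL progenitors. *Spi1* encodes PU.1, the ETS-family transcription factor that both macrophages and granulocytes need, and CSF1R, the receptor for CSF1 and IL-34, keeps macrophages alive. Neutrophil progenitors first make azurophil granule proteins such as MPO and ELANE, and later fill their cytosol with S100A8 and S100A9. FL macrophages sit at the center of erythroblastic islands, where they touch maturing erythroid cells and engulf expelled nuclei.

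Total counts ran from 40714017 to 64368883 per library, and levels are given as CPM, the count of a gene per 1e+06 counts, on library sizes scaled by the trimmed mean of M values (TMM). Marker lists matched the gates at E14.5: the summed level of 10 hepatoblast genes was 75192 to 86736 CPM in CD54+CD31- libraries and at most 1017 CPM in the other E14.5 libraries, and that of 10 endothelial genes was 9968 to 10656 CPM in CD31+ libraries and at most 449 CPM elsewhere. The E18.5 libraries stood apart from their label. Their summed level of 12 lung epithelium genes was 24961, 11651, and 11724 CPM in replicates 1, 2, and 3, against at most 250.4 CPM in any E14.5 library, and their hepatoblast sum was 4862, 39718, and 51606 CPM. Replicate 1 at E18.5 was thus the highest for lung genes and the lowest for hepatoblast genes, and counts over age that changed by more than 1.5 times without it are given below. Age and this difference in content cannot be told apart in the comparison of E18.5 with E14.5.

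All 10 genes were detected in all 12 libraries, but at a small share of the RNA: together they took 0.000829% of the counts in the lowest library and 0.0730% in the highest. Their summed level was 8.40 to 12.9 CPM in P2 libraries, 92.4 to 226 CPM in CD54+CD31- libraries at E14.5, 173 to 656 CPM in CD31+ libraries, and 335 to 568 CPM at E18.5. P2 cells had the lowest mean for each of the 10 genes. In bulk RNA, fewer myeloid cells in a gate and less RNA per cell cannot be told apart.

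**Figure D1:**
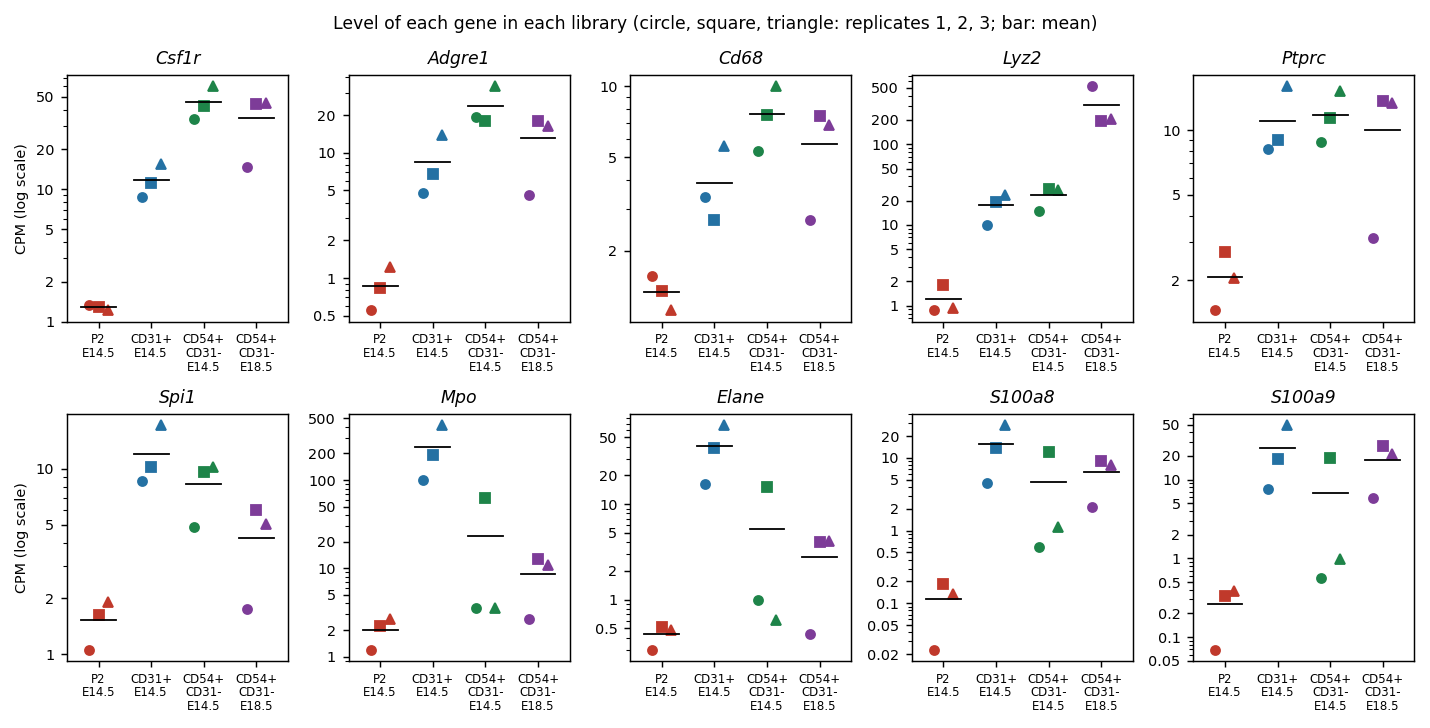
Levels of the 10 genes in CPM (log scale) in each library, with replicates 1, 2, and 3 as circle, square, and triangle and the group mean as a bar. P2 libraries are the lowest for most genes, CD31+ libraries are the highest for Mpo and Elane (101 to 419 CPM for Mpo), and Lyz2 reaches 530.2 CPM in replicate 1 at E18.5.

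Genes were tested with edgeR's quasi-likelihood test, and p-values were adjusted by Benjamini-Hochberg over all genes tested (edgeR adjusted p, called below 0.05). In P2 against CD54+CD31- cells all 10 genes were lower in P2. Their median log2 fold change was -3.97, against -0.01 over the 15461 genes tested. Of all genes tested, 70.0% were called, 36.1% as lower and 33.8% as higher, so a call alone was common in these comparisons. The libraries of these groups did not overlap for any of the 10 genes, as was the case with P2 lower for 37.7% of all genes. In P2 against CD31+ cells all 10 were again lower in P2, with a median of -3.58 against -0.13 over all genes, of which 73.7% were called, 39.4% as lower and 34.3% as higher. Again the libraries overlapped for none of the 10, as was the case with P2 lower for 40.2% of all genes. In CD31+ against CD54+CD31- cells, 2 genes were higher (*Mpo* and *Elane*), 3 were lower (*Csf1r*, *Adgre1*, and *Cd68*), and 5 were not called. The background there was 65.6% called, 31.7% higher and 34.0% lower, and the median was 0.22 against -0.03. At E18.5 against E14.5, 1 gene was higher (*Lyz2*) and 9 were not called, against 69.4% of the 15863 genes tested called, 35.9% as higher and 33.5% as lower, with a median of -0.23 against 0.03. The medians of these last comparisons turned sign with 1 library left out, to -0.22 for CD31+ against CD54+CD31- cells without CD31+ replicate 3 and -0.020 without CD54+CD31- replicate 1, and over age to 0.11 without E18.5 replicate 1 and 0.67 without E14.5 replicate 2. With the authors' own factor for each library in place of TMM, the share of calls that were higher in P2 than in CD54+CD31- cells went from 48.4% to 38.2%. For the comparison with CD31+ cells it went from 46.6% to 33.9%, and the 10 genes were called lower in each. The 3 comparisons at E14.5 share libraries, and CD54+CD31- cells at E14.5 also serve the comparison over age.

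**Figure D2:**
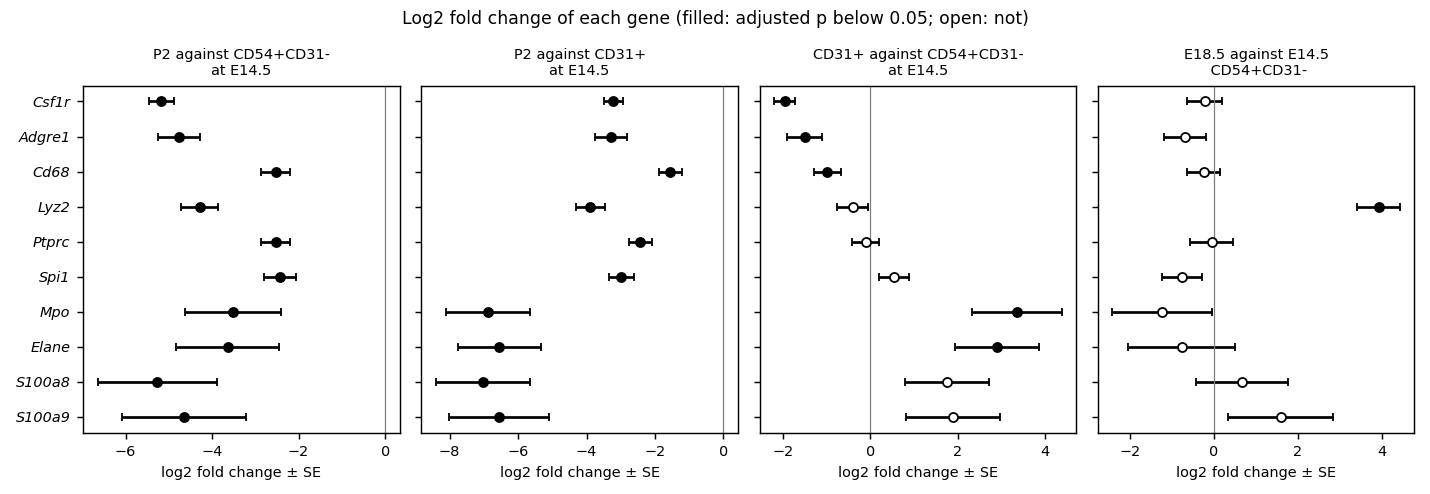
Log2 fold change of each gene with its standard error (SE) in the 4 comparisons, filled where the edgeR adjusted p was below 0.05 and open where it was not. All 10 genes lie below 0 in both comparisons of P2 cells, and the SE of Mpo, Elane, S100a8, and S100a9 (0.96 to 1.46) is larger than that of the other 6 genes (0.24 to 0.52).

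*Ptprc* and *Spi1* are shared by macrophages and granulocytes. *Ptprc* (ENSMUSG00000026395, chromosome 1, 138062861 to 138175708, minus strand, GRCm38) had 1.45, 2.71, and 2.06 CPM in P2 libraries (replicates 1, 2, and 3), 8.17, 8.96, and 16.1 in CD31+ libraries, 8.83, 11.4, and 15.3 in CD54+CD31- libraries at E14.5, and 3.14, 13.6, and 13.4 at E18.5. The P2 libraries lay below all others, and the other 3 groups overlapped. So RNA of the CD45 gene was present in every gate sorted as CD45-, at means of 2.07 ± 0.629 (SD, n = 3) in P2, 11.1 ± 4.37 in CD31+, 11.8 ± 3.26 in CD54+CD31- at E14.5, and 10.04 ± 5.98 at E18.5. Its log2 fold change was -2.53 (SE 0.33, edgeR adjusted p = 5.97e-05) in P2 against CD54+CD31- cells, and -2.43 (SE 0.33, edgeR adjusted p = 7.12e-05) against CD31+ cells. CD31+ and CD54+CD31- cells differed by -0.10 (SE 0.31, edgeR adjusted p = 0.790), and E18.5 and E14.5 by -0.05 (SE 0.52, edgeR adjusted p = 0.931), both within the spread of the libraries.

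*Spi1* (ENSMUSG00000002111, chromosome 2, 91082390 to 91115756, plus strand) had 1.06, 1.62, and 1.91 CPM in P2 libraries, 8.58, 10.2, and 17.2 in CD31+ libraries, 4.84, 9.60, and 10.3 in CD54+CD31- libraries at E14.5, and 1.75, 5.98, and 5.04 at E18.5. Its mean was highest in CD31+ cells (12.02 ± 4.58), whose libraries overlapped those of CD54+CD31- cells (8.23 ± 2.96), and replicate 1 at E18.5 fell within the range of P2 cells. The log2 fold change of P2 cells was -2.44 (SE 0.37, edgeR adjusted p = 0.000161) against CD54+CD31- cells and -2.98 (SE 0.37, edgeR adjusted p = 3.51e-05) against CD31+ cells. The other comparisons did not pass the test, with 0.54 (SE 0.34, edgeR adjusted p = 0.180) for CD31+ against CD54+CD31- cells and -0.77 (SE 0.47, edgeR adjusted p = 0.190) for E18.5 against E14.5.

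The macrophage receptors *Csf1r* and *Adgre1* were highest in the CD54+CD31- gate. *Csf1r* (ENSMUSG00000024621, chromosome 18, 61100598 to 61132149, plus strand) had 33.8, 42.7, and 60.6 CPM in CD54+CD31- libraries at E14.5, 8.76, 11.1, and 15.5 in CD31+ libraries, 1.33, 1.29, and 1.21 in P2 libraries, and 14.6, 44.5, and 44.7 at E18.5. The 3 groups at E14.5 did not overlap, and their order was CD54+CD31-, CD31+, then P2. P2 cells were 36.2-fold lower than CD54+CD31- cells (log2 fold change -5.18, SE 0.29, edgeR adjusted p = 8.46e-08) and 9.30-fold lower than CD31+ cells (-3.22, SE 0.27, edgeR adjusted p = 2.06e-06). CD31+ cells were in turn 3.89-fold lower than CD54+CD31- cells (-1.96, SE 0.24, edgeR adjusted p = 3.89e-05). E18.5 and E14.5 did not differ beyond their spread (-0.22, SE 0.42, edgeR adjusted p = 0.663). The opposite-strand gene *Hmgxb3* shares 873 exon bases with *Csf1r*, and the sources used here do not say whether reads were counted by strand. *Hmgxb3* was highest in P2 libraries, at 65.7 ± 2.21 CPM against 36.2 to 42.9 in the other groups. Whether its reads add to the counts of *Csf1r*, which are low in P2 libraries, was not tested.

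*Adgre1* (ENSMUSG00000004730, chromosome 17, 57358691 to 57483527, plus strand) encodes F4/80, the surface protein by which mouse macrophages are usually gated. It had 19.1, 17.9, and 34.2 CPM in CD54+CD31- libraries at E14.5, 4.76, 6.75, and 13.8 in CD31+ libraries, 0.551, 0.832, and 1.23 in P2 libraries, and 4.64, 17.9, and 16.5 at E18.5. The order of the E14.5 groups was that of *Csf1r*, again without overlap. The log2 fold change was -4.77 (SE 0.48, edgeR adjusted p = 7.99e-06) in P2 against CD54+CD31- cells, -3.27 (SE 0.47, edgeR adjusted p = 9.79e-05) in P2 against CD31+ cells, and -1.50 (SE 0.40, edgeR adjusted p = 0.00752) in CD31+ against CD54+CD31- cells. For E18.5 against E14.5 it was -0.69 (SE 0.50, edgeR adjusted p = 0.258).

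*Cd68* and *Lyz2* encode proteins of the lysosome and the secretory granule, macrosialin and lysozyme M. *Cd68* (ENSMUSG00000018774, chromosome 11, 69664213 to 69666153, minus strand) had 5.32, 7.55, and 10.1 CPM in CD54+CD31- libraries at E14.5, 3.39, 2.71, and 5.58 in CD31+ libraries, 1.56, 1.35, and 1.12 in P2 libraries, and 2.71, 7.49, and 6.84 at E18.5. It spread less between the gates than *Csf1r* did. P2 cells had log2 fold changes of -2.53 (SE 0.33, edgeR adjusted p = 5.59e-05) against CD54+CD31- cells and -1.55 (SE 0.33, edgeR adjusted p = 0.00143) against CD31+ cells. CD31+ cells were lower than CD54+CD31- cells by the test (-0.98, SE 0.31, edgeR adjusted p = 0.0174), although replicate 3 of CD31+ cells lay above replicate 1 of CD54+CD31- cells. That call was lost under 3 of the alternatives (edgeR adjusted p = 0.0504, 0.0559, and 0.0818). Over all alternatives the edgeR or DESeq2 adjusted p ran from 0.00274 to 0.0818. E18.5 against E14.5 gave -0.24 (SE 0.40, edgeR adjusted p = 0.606).

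*Lyz2* (ENSMUSG00000069516, chromosome 10, 117277331 to 117282321, minus strand) was the only member called between E18.5 and E14.5 with all libraries. It had 14.8, 28.1, and 27.2 CPM in CD54+CD31- libraries at E14.5, 10.1, 19.3, and 23.7 in CD31+ libraries, 0.873, 1.81, and 0.924 in P2 libraries, and 530.2, 194, and 204 at E18.5. The E18.5 libraries lay far above the rest, and CD54+CD31- and CD31+ libraries at E14.5 overlapped. E18.5 cells were 15.2-fold higher than E14.5 cells (log2 fold change 3.93, SE 0.51, edgeR adjusted p = 0.000541), and between 3.26 and 4.18 on the log2 scale with each library left out in turn. Replicate 1 at E18.5, the library with the most lung epithelium RNA and the least of the other 9 genes, held the most *Lyz2*. *Lyz1*, a near-identical lysozyme gene next to *Lyz2* whose reads the counting could have split or dropped, had at most 5 counts in any E14.5 library and 860.2, 259, and 280.2 CPM at E18.5. The surfactant gene *Sftpc* had 12374, 5093, and 5402 CPM there, and lysozyme is known from alveolar type II cells as well as from macrophages. The part of lung epithelium in the rise of *Lyz2* was not tested.

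Within E14.5, *Lyz2* was 19.6-fold lower in P2 than in CD54+CD31- cells (-4.29, SE 0.42, edgeR adjusted p = 5.99e-06) and 14.8-fold lower than in CD31+ cells (-3.89, SE 0.41, edgeR adjusted p = 1.10e-05). CD31+ and CD54+CD31- cells differed by -0.40 (SE 0.35, edgeR adjusted p = 0.330), within the spread of their libraries.

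The azurophil granule genes *Mpo* and *Elane* were highest in CD31+ cells, and in the CD54+CD31- gate they were high in 1 of 3 libraries. *Mpo* (ENSMUSG00000009350, chromosome 11, 87793581 to 87804413, plus strand) encodes myeloperoxidase, which makes hypochlorous acid. It had 101, 194, and 419 CPM in CD31+ libraries, 3.59, 63.0, and 3.58 in CD54+CD31- libraries at E14.5, 1.19, 2.23, and 2.66 in P2 libraries, and 2.65, 12.6, and 10.9 at E18.5. CD31+ libraries lay above all others, while replicate 2 of CD54+CD31- cells stood 17.6-fold above the mean of the other 2 replicates of its group. CD31+ cells were 10.2-fold higher than CD54+CD31- cells (log2 fold change 3.35, SE 1.03, edgeR adjusted p = 0.0151) and P2 cells 118-fold lower than CD31+ cells (-6.88, SE 1.24, edgeR adjusted p = 0.000520). The antisense gene *Gm11505*, which shares 512 exon bases with *Mpo*, had 0 counts in all libraries.

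*Elane* (ENSMUSG00000020125, chromosome 10, 79886247 to 79888215, plus strand) encodes neutrophil elastase. It had 16.2, 38.4, and 67.4 CPM in CD31+ libraries, 0.990, 15.0, and 0.617 in CD54+CD31- libraries at E14.5, 0.299, 0.520, and 0.481 in P2 libraries, and 0.433, 3.98, and 4.07 at E18.5. The pattern was that of *Mpo*, with CD31+ libraries above all others and CD54+CD31- replicate 2 18.6-fold above the mean of replicates 1 and 3. By the test CD31+ cells were 7.47-fold higher than CD54+CD31- cells (2.90, SE 0.96, edgeR adjusted p = 0.0218), and P2 cells 93.4-fold lower than CD31+ cells (-6.54, SE 1.22, edgeR adjusted p = 0.000636). Without CD31+ replicate 3 neither *Mpo* (2.58, edgeR adjusted p = 0.0568) nor *Elane* (2.24, edgeR adjusted p = 0.0840) passed the test against CD54+CD31- cells, each the highest adjusted p of its alternatives, and without CD54+CD31- replicate 1 *Elane* did not (2.39, edgeR adjusted p = 0.0602). At E18.5 against E14.5 neither passed the test, with -1.23 (SE 1.19, edgeR adjusted p = 0.386) for *Mpo* and -0.77 (SE 1.28, edgeR adjusted p = 0.612) for *Elane*.

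*S100a8* and *S100a9* encode the subunits of calprotectin, the calcium-binding protein of neutrophil and monocyte cytosol. *S100a8* (ENSMUSG00000056054, chromosome 3, 90668978 to 90670035, plus strand) had 4.47, 13.8, and 28.3 CPM in CD31+ libraries, 0.594, 12.2, and 1.13 in CD54+CD31- libraries at E14.5, 0.0230, 0.187, and 0.135 in P2 libraries, and 2.09, 9.20, and 8.03 at E18.5. *S100a9* (ENSMUSG00000056071, chromosome 3, 90692632 to 90695721, minus strand) had 7.58, 18.5, and 49.3 CPM in CD31+ libraries, 0.566, 19.0, and 0.987 in CD54+CD31- libraries at E14.5, 0.0689, 0.333, and 0.385 in P2 libraries, and 5.77, 26.8, and 21.2 at E18.5. Both genes were near the limit of detection in P2 libraries, with 1, 9, and 7 counts of *S100a8* and 3, 16, and 20 of *S100a9*, where 3 counts in replicate 1 correspond to 0.0689 CPM. CD54+CD31- replicate 2 again stood out at E14.5, 14.1-fold above the mean of its group's other replicates for *S100a8* and 24.4-fold for *S100a9*.

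Against CD31+ cells, P2 cells had log2 fold changes of -7.02 (SE 1.38, edgeR adjusted p = 0.000927) for *S100a8* and -6.55 (SE 1.46, edgeR adjusted p = 0.00208) for *S100a9*. CD31+ and CD54+CD31- cells overlapped and were not called, with 1.76 (SE 0.96, edgeR adjusted p = 0.130) and 1.89 (SE 1.08, edgeR adjusted p = 0.146). Nor were E18.5 and E14.5, with 0.67 (SE 1.10, edgeR adjusted p = 0.605) and 1.59 (SE 1.26, edgeR adjusted p = 0.294). These values turned on CD54+CD31- replicate 2. Without it, *S100a8* was higher by 4.05 and *S100a9* by 4.90 in CD31+ than in CD54+CD31- cells, and by 3.05 and 4.68 at E18.5 than at E14.5. All 4 then passed the test, with edgeR adjusted p of 0.00159, 0.000849, 0.0168, and 0.00482, while over all alternatives the adjusted p ran up to 0.467 and 0.535 for CD31+ against CD54+CD31- cells and to 0.921 and 0.520 for age.

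The same library carried the 4 granulocyte genes in P2 against CD54+CD31- cells. With all libraries, the log2 fold changes were -3.52 (SE 1.106, edgeR adjusted p = 0.0156) for *Mpo*, -3.64 (SE 1.19, edgeR adjusted p = 0.0188) for *Elane*, -5.26 (SE 1.38, edgeR adjusted p = 0.00614) for *S100a8*, and -4.65 (SE 1.44, edgeR adjusted p = 0.0144) for *S100a9*. Without CD54+CD31- replicate 2, 7 genes were called lower in place of 10. *Mpo* fell to -0.84 (edgeR adjusted p = 0.217), *Elane* to -0.89 (edgeR adjusted p = 0.299), and *S100a9* to -1.56 (edgeR adjusted p = 0.193), each of which is the highest adjusted p of its alternatives, and *S100a8* stayed called at -2.89 (edgeR adjusted p = 0.0266). *Elane* was also not called without P2 replicate 3 (-3.72, edgeR adjusted p = 0.0508). The 6 genes other than these, among them *Csf1r* and *Adgre1*, were called in each leave-one-out fit of both P2 comparisons, and against CD31+ cells all 10 were.

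**Figure D3:**
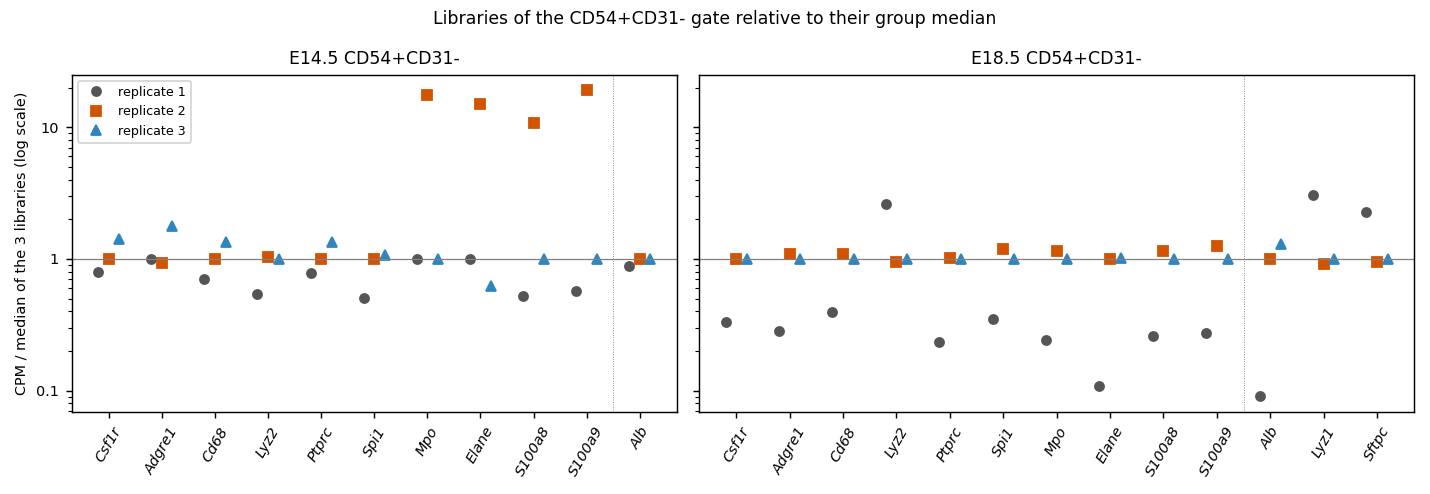
Level of each gene in the 3 libraries of the CD54+CD31- gate, as CPM divided by the median of the group's libraries (log scale), at E14.5 (left) and E18.5 (right). Albumin (Alb) is to the right of the dotted line in both panels, with Lyz1 and Sftpc at E18.5. At E14.5 replicate 2 stands out for Mpo, Elane, S100a8, and S100a9, and at E18.5 replicate 1 is the lowest library for all genes but Lyz2, Lyz1, and Sftpc.

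The libraries of a gate thus differed in which myeloid RNA they held. CD54+CD31- replicate 2 at E14.5 did not stand out for the other members as it did for the granulocyte genes. Relative to the mean of the other replicates, *Adgre1* was at 0.671, *Csf1r* at 0.905, and *Cd68* at 0.982 times. *Ptprc* was at 0.942, *Spi1* at 1.27, and *Lyz2* at 1.34 times. Replicate 2 was thus the lowest library of its group for *Adgre1* and the highest for *Lyz2*. At E18.5, replicate 1 was the lowest library for 9 of the 10 genes, from 0.108 times the mean of replicates 2 and 3 for *Elane* to 0.378 times for *Cd68*, and the highest for *Lyz2*, at 2.67 times. *Alb* moved with the 9 genes there, at 2405, 26602, and 34529 CPM. In CD31+ cells replicate 3 was the highest library for all 10 genes, from 1.77 times the lowest library for *Csf1r* to 6.51 times for *S100a9*, while the endothelial sum spanned 9968 to 10656 CPM and the erythroid sum was 168, 270.3, and 489 CPM. The part of these differences in library content in the calls was tested only by leaving libraries out.

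Ratios within a library compare the genes without the library's scale, per kb of exon. *Cd68* to *Csf1r* was 0.723 to 0.812 in CD54+CD31- libraries at E14.5 and 0.703 to 0.850 at E18.5, so the 2 ages overlapped even though replicate 1 at E18.5 held less of both. It was 1.12 to 1.78 in CD31+ libraries and 4.23 to 5.39 in P2 libraries, so that *Cd68* RNA of P2 cells came with little *Csf1r*. *Ptprc* to *Csf1r* was likewise 0.0796 to 0.0839 and 0.0677 to 0.0966 in the CD54+CD31- gate at E14.5 and E18.5, and 0.254 to 0.328 in CD31+ and 0.342 to 0.661 in P2 libraries. *Spi1* to *Csf1r* set the CD54+CD31- gate apart, at 0.242 to 0.482 over both ages. It did not divide CD31+ (1.97 to 2.38) from P2 libraries (1.70 to 3.37).

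*Mpo* to *Csf1r*, a granulocyte gene over a macrophage gene, was 19.4 to 45.7 in CD31+ libraries and 1.51 to 3.69 in P2 libraries. In CD54+CD31- libraries at E14.5 it was 0.179, 2.49, and 0.0995, with replicate 2 apart, and at E18.5 it was 0.305 to 0.477. *Mpo* to *Elane* stayed within 0.770 to 1.79 over all 12 libraries. *S100a9* to *S100a8* was 1.16 to 2.32 at E14.5, where both had at least 10 counts, and 3.52 to 3.87 at E18.5, above each of those. *Lyz2* to *Csf1r* was 1.92 to 7.60 at E14.5 and 159, 19.1, and 20.02 at E18.5.

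Levels per kb give the order of the genes within a gate. In CD31+ cells *Mpo* (69.5 ± 47.8 CPM per kb), *S100a9* (48.2 ± 41.5), and *Elane* (41.3 ± 26.1) led, and overlapped. In CD54+CD31- cells at E14.5 *Lyz2* (17.7 ± 5.64), *S100a9* (13.1 ± 20.1), *Csf1r* (7.92 ± 2.37), and *Adgre1* (7.34 ± 2.81) led, the *S100a9* mean being that of replicate 2. In P2 cells *Cd68* (1.07 ± 0.177) and *Lyz2* (0.914 ± 0.401) were at the top and *Ptprc* (0.113 ± 0.0344) at the bottom. The rank of *Ptprc* rests on the length used, the union of exons over all annotated transcripts, which was 18313 bases. In CPM, without length, *Ptprc* (2.07) was above *Csf1r* (1.28) and *Adgre1* (0.872) in P2 cells. The *Ptprc* to *Csf1r* ratios use the same length, so they compare gates and not the 2 genes. At E18.5 *Lyz2* was at 235 ± 145 CPM per kb and *S100a9* at 34.4 ± 20.9.

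Granule genes and *Lyz2* are classical targets of PU.1, whose binding sites hold the ETS core GGAA, and the promoters of the members were searched for it. In RefSeq promoter windows of 300 bases (GRCm38.p6), 7 of the 10 members had an entry, and the motif AGGAAGT or its reverse complement ACTTCCT stood in those of 5 (*Lyz2*, *Ptprc*, *Mpo*, *Elane*, and *S100a8*), against 9.35% of 32851 windows of all genes. TATAAA, on either strand, stood in those of 3 (*Ptprc*, *S100a8*, and *S100a9*), against 13.6%, and no match of one motif overlapped a match of the other in these windows. The stretches upstream of 4 members are shown because they hold the match, with the motif in capitals, 5′ to 3′ on the strand of the gene.
Mpo, chr11:87793534-87793580, plus strand: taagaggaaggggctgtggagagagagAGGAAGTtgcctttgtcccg
Elane, chr10:79886062-79886246, plus strand: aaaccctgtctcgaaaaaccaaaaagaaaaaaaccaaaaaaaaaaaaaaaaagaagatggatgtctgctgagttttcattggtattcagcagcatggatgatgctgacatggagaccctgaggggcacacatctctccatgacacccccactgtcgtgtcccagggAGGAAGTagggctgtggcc
S100a8, chr3:90668821-90668977, plus strand: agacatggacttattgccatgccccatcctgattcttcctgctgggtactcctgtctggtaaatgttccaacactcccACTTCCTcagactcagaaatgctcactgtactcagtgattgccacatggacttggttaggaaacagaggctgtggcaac
Lyz2, chr10:117282322-117282522, minus strand: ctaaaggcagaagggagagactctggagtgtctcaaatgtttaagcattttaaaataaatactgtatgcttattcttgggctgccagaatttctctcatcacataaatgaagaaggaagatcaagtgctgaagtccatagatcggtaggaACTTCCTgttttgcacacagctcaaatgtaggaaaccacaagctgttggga
The match is a description of these letters and not of binding. The members with a match did not share an order of the gates: *Mpo*, *Elane*, and *S100a8* had their highest mean in CD31+ cells, *Ptprc* in CD54+CD31- cells at E14.5, and *Lyz2* at E18.5.

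The other genes of each lineage were followed through lists. Of all genes, 33.8% were higher and 36.1% lower in P2 than in CD54+CD31- cells, and 34.3% and 39.4% than in CD31+ cells. For CD31+ against CD54+CD31- cells the shares were 31.7% and 34.0%, and over age 35.9% and 33.5%. Of 25 macrophage genes, 24 were tested at E14.5, and 23 were lower in P2 than in CD54+CD31- cells (median -4.26 on the log2 scale). The exception was *Mrc1*, the mannose receptor, which sinusoidal endothelium also makes (-0.12, SE 0.54, edgeR adjusted p = 0.857). *Cd5l*, a secreted protein of FL macrophages, had 37.5 ± 11.4 CPM in CD54+CD31- cells at E14.5 and 2.44 ± 1.03 in P2 cells (-3.96, SE 0.36, edgeR adjusted p = 3.79e-06). *Mertk*, a receptor for the uptake of apoptotic cells, had 76.4 ± 7.18 CPM in CD54+CD31- and 3.99 ± 2.00 in P2 cells (-4.28, SE 0.29, edgeR adjusted p = 3.84e-07).

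Against CD31+ cells, 22 of 24 macrophage genes were lower in P2 (median -3.31), and *Cd163* and *Slc40a1* were not called. In CD31+ against CD54+CD31- cells 13 were lower, 1 was higher, and the median was -1.05, but only 7 were lower without CD54+CD31- replicate 3. The gene that was higher was *Mrc1*, at 1415 ± 106 against 27.8 ± 9.15 CPM (5.67, SE 0.65, edgeR adjusted p = 2.47e-05), while *Cd5l* was lower at 18.7 ± 5.92 CPM (-1.02, SE 0.32, edgeR adjusted p = 0.0165). Over age, 3 of 25 rose (*Cd163*, *Clec4f*, and *Vsig4*, genes of mature Kupffer cells and resident macrophages), 2 fell (*Mertk* and *Trem2*), and the median was -0.37. Both counts are below the shares of all genes (35.9% and 33.5%). *Vsig4* did not pass the filter at E14.5, so it entered through the E18.5 libraries and its direction was set in advance. Without E18.5 replicate 1, 5 rose, 2 fell, and the median was -0.014, and without E14.5 replicate 3, 3 rose and 1 fell. *Clec4f*, the Kupffer cell lectin, went from 0.990, 1.35, and 2.32 CPM at E14.5 to 5.09, 20.8, and 18.8 at E18.5 (3.43, SE 0.59, edgeR adjusted p = 0.00200), with no overlap.

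Of 10 monocyte genes 9 were tested, and 8 were lower in P2 than in CD54+CD31- cells (median -4.21), and all 9 than in CD31+ cells (median -4.90). With only the P2 and CD54+CD31- libraries 7 genes of the list passed the filter, and with only the P2 and CD31+ libraries 8. The others entered through the gate left out, so their direction against that gate was set in advance. In CD31+ against CD54+CD31- cells 4 were higher, with *Clec12a*, *F13a1*, and *Plac8* among them, and 1 was lower (*Fcgr4*), with a median of 1.399. *F13a1*, the coagulation factor XIII subunit of monocytes and macrophages, had 30.4 ± 13.2 against 11.5 ± 6.05 CPM (1.399, SE 0.44, edgeR adjusted p = 0.0178). These counts turned on single libraries: 1 was higher and 2 were lower without CD31+ replicate 3, 2 were higher without CD54+CD31- replicate 1 or replicate 3, and 5 were higher without replicate 2. Over age *Cd14* passed the test (higher, median of the list 0.18), and 2 genes were higher without E18.5 replicate 1 (median 0.57) or without E14.5 replicate 2 (median 0.49), while the median was below 0 with E14.5 replicate 1, E18.5 replicate 2, or E18.5 replicate 3 left out (-0.022, -0.18, and -0.0093). *Irf8*, the monocyte transcription factor, was listed at 0 in all 12 libraries. So was *Alas2*, the heme synthesis gene of erythroid cells, even in P2 cells, so a 0 of this kind is not read as absent RNA.

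Of 7 further genes of the primary granule program 6 were tested, and 5 were lower in P2 than in CD54+CD31- cells (median -3.07), with 0 called without CD54+CD31- replicate 2 and 2 or 3 without a P2 library. Against CD31+ cells all 6 were lower in P2 (median -6.18). With only the P2 and CD54+CD31- libraries 2 genes of the list passed the filter. The others entered through the CD31+ libraries, so their direction against CD31+ cells was set in advance. *Prtn3*, the proteinase 3 gene beside *Elane*, had 12.1, 24.9, and 54.3 CPM in CD31+ libraries and 0.712, 1.12, and 0.501 in P2 libraries (-5.30, SE 1.03, edgeR adjusted p = 0.000879). In CD31+ against CD54+CD31- cells 5 of 6 were higher (median 3.02), 6 without CD54+CD31- replicate 2, and 3 without CD31+ replicate 3 or CD54+CD31- replicate 1 or 3. *Ctsg*, cathepsin G, had 12.7, 23.2, and 41.8 CPM in CD31+ libraries against 0.566, 7.30, and 0.173 in CD54+CD31- libraries (3.31, SE 0.94, edgeR adjusted p = 0.0102), and thus followed *Mpo* and *Elane* in replicate 2. Over age 0 of 6 were called by edgeR or by DESeq2, and the median of -0.51 turned to 1.58 without E14.5 replicate 2.

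Of 18 late neutrophil genes, those of secondary and tertiary granules and mature cells, 11 were tested at E14.5. In P2 cells 9 were lower than in CD54+CD31- cells (median -3.65) and 10 lower than in CD31+ cells (median -3.59). With only the P2 and CD54+CD31- libraries 6 genes of the list passed the filter, and with only the P2 and CD31+ libraries 8. The others entered through the gate left out, so their direction against that gate was set in advance. CD31+ and CD54+CD31- cells were mixed, with 2 higher (*Csf3r* and *Cxcr2*), 3 lower (*Fpr1*, *Lcn2*, and *Ltf*), and a median of 0.15. There were 4 higher and 2 lower without CD54+CD31- replicate 2, and 0 higher with CD54+CD31- replicate 1, CD54+CD31- replicate 3, or CD31+ replicate 3 left out, with 2, 1, and 4 lower. Over age 10 of 16 genes tested rose and 0 fell, against 35.9% and 33.5% of all genes, with a median of 2.63, and without E18.5 replicate 1 12 of 16 rose. Of the 10, *Chil3*, *Mmp8*, *Padi4*, and *Retnlg* did not pass the filter at E14.5. They entered through the E18.5 libraries, so their direction was set in advance, and the count and the median include them. The filter at E14.5 included the CD31+ libraries, and only 6 genes of the list passed it without them. Others of the 10 may thus also have entered through the E18.5 libraries. *Ngp*, neutrophilic granule protein, had 0.537, 2.80, and 0.345 CPM at E14.5 and 6.17, 27.2, and 26.7 at E18.5 (4.24, SE 0.92, edgeR adjusted p = 0.00568). *Ltf*, lactoferrin, went from 2.49 ± 0.162 to 17.1 ± 10.2 CPM (2.96, SE 0.54, edgeR adjusted p = 0.00263). Both were lowest at E18.5 in replicate 1, as *S100a8* and *S100a9* were, but *Lcn2*, which epithelia also make, was highest there, at 73.2 against 33.6 and 34.2 CPM in replicates 2 and 3. *Ly6g*, *Chil3*, and *Itgb2l* had 0 counts in all E14.5 libraries.

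**Figure D4:**
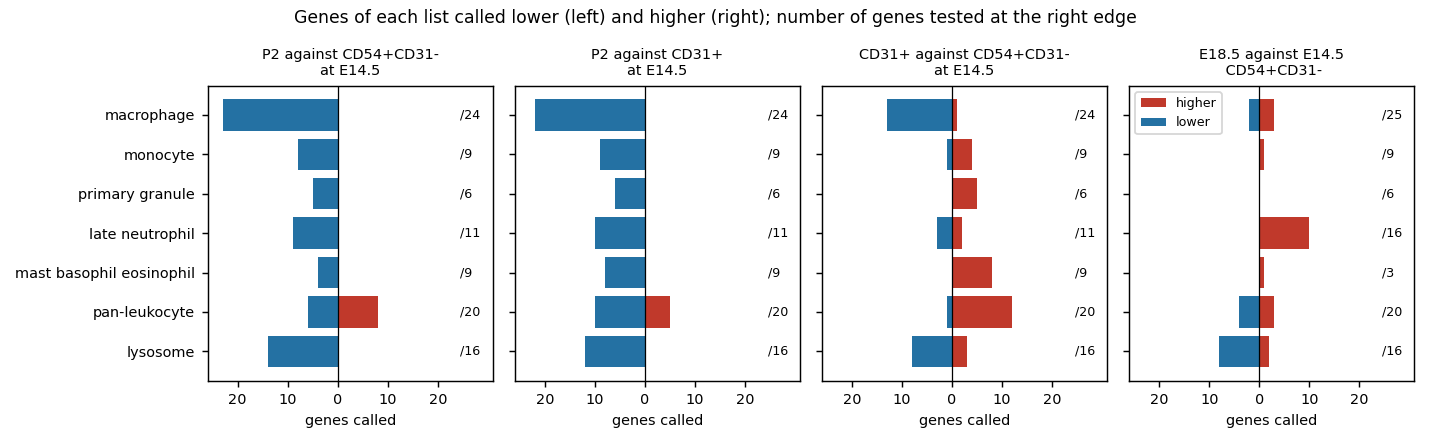
Number of genes of each list called lower (left, blue) and higher (right, red) in the 4 comparisons, with the number tested at the right edge of each panel. P2 cells have 0 genes higher in the macrophage, monocyte, primary granule, late neutrophil, and lysosome lists in both comparisons but 8 and 5 in the pan-leukocyte list, and at E18.5 the late neutrophil list has 10 genes higher. Some list genes passed the filter only through the group where they were high.

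The low *Ptprc* of P2 cells was not shared by all leukocyte genes. Of 20 pan-leukocyte genes, 8 were higher and 6 lower in P2 than in CD54+CD31- cells (median 0.45), near the shares of all genes (33.8% and 36.1%), and 5 higher and 10 lower than in CD31+ cells (median -0.70). *Spn*, the CD43 sialoprotein, had 345 ± 14.5 CPM in P2 cells, 39.5 ± 8.63 in CD31+ cells, and 21.9 ± 9.60 in CD54+CD31- cells at E14.5 (3.96 against the last, SE 0.29, edgeR adjusted p = 6.57e-07). *Lcp1*, the actin-bundling L-plastin, was lower in P2 cells, at 9.15 ± 3.56 against 29.5 ± 8.71 CPM in CD54+CD31- cells (-1.70, SE 0.29, edgeR adjusted p = 0.000404). The summed level of the list was 725 to 811 CPM in P2 libraries, 539 to 698 in CD31+, 175 to 276 in CD54+CD31- at E14.5, and 203 to 268 at E18.5, an order that is not that of *Ptprc*. *Spn* makes up much of the P2 sum. The study lists *Spn*, *Was*, *Inpp5d*, and *Selplg* as higher in P2 than in CD324+ cells, from the same data, so their calls are no separate evidence. CD31+ cells had 12 of the 20 higher and 1 (*Ptpn6*) lower than CD54+CD31- cells (median 0.84), and over age 3 rose and 4 fell (median -0.26, and 0.080 without E18.5 replicate 1), with 2 lower without E14.5 replicate 2 or 3.

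Genes of the lysosome, which *Cd68* belongs to, are used by all cells. Of 16, 14 were lower in P2 than in CD54+CD31- cells (median -1.51) and 12 lower than in CD31+ cells (median -1.02), with 0 higher in either with all libraries. Against CD31+ cells 1 was higher without CD31+ replicate 2 or without CD31+ replicate 3. *Ctsl*, cathepsin L, had 22.6 ± 3.68 CPM in P2, 274 ± 17.4 in CD31+, and 525 ± 57.2 in CD54+CD31- cells at E14.5 (-4.56 for P2 against CD54+CD31-, SE 0.14, edgeR adjusted p = 1.27e-09). CD31+ cells had 3 higher and 8 lower than CD54+CD31- cells (median -0.53), and over age 2 rose and 8 fell (median -0.38). The background of lower genes was 34.0% and 33.5% in these comparisons, and over age 1 rose with any library but E14.5 replicate 3 or E18.5 replicate 1 left out.

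Lists of other cell types were followed for comparison. The shares of all genes higher and lower were 33.8% and 36.1% in P2 against CD54+CD31- cells, and 34.3% and 39.4% against CD31+ cells. For CD31+ against CD54+CD31- cells they were 31.7% and 34.0%, and over age 35.9% and 33.5%. Of the 6 lymphoid genes tested, 1 was lower in P2 than in CD54+CD31- cells, 6 lower than in CD31+ cells, and 4 higher in CD31+ than in CD54+CD31- cells. The summed level of the 12 listed was 0.781 to 1.27 CPM in P2, 1.53 to 6.64 in CD54+CD31-, and 20.7 to 31.2 in CD31+ libraries. Genes may have passed the filter through CD31+ libraries, which would set their direction against CD31+ cells in advance. All 10 megakaryocyte genes were higher in CD31+ than in CD54+CD31- cells, and of 9 erythroid genes 5 were higher in P2 than in either gate. Over age, 9 of 9 mesenchymal genes, 10 of 10 endothelial genes, and 12 of 12 lung epithelium genes rose, and 4 of 9 hepatoblast genes, 6 of 9 erythroid genes, and 2 of 10 megakaryocyte genes fell, with 1 megakaryocyte gene (*Vwf*) and 3 of 5 lymphoid genes higher. The falls of hepatoblast genes were near the share of all genes, and those of megakaryocyte genes below it. Of the lung epithelium genes 8 passed the filter at E14.5, and the lymphoid gene *Il7r* did not. Those that did not entered through the E18.5 libraries. That filter included the CD31+ libraries, so other lymphoid genes that rose may also have entered through E18.5. The part of these lists in the levels of the myeloid genes was not tested.

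The genes whose levels ran most like those of a member over the 12 libraries were found by Pearson's correlation of log2(CPM + 1) among 14104 genes with at least 1 CPM in 3 libraries or more. The 12 points share the 4 gates and their library scaling, so the values are a description. *Csf1r* ran most like *Mpeg1* (r = 0.989), *Lcor* (0.989), *C1qc* (0.988), *Pik3ap1* (0.988), and *Ctss* (0.985). *Mpo* ran most like *Atp8b4* (0.993), *Clec5a* (0.987), *Prtn3* (0.987), *Ctsg* (0.985), and *Plcb2* (0.978). For *S100a8* the nearest were *Stfa1* (0.984), *Olfm4* (0.979), *Fcnb* (0.973), *Camp* (0.968), and *Gda* (0.962).

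The genes nearest to *Ptprc* were *Slc15a3* (0.982), *Bank1* (0.981), *Nfam1* (0.969), *Cd300a* (0.966), and *Marco* (0.959). Those nearest to *Spi1* were *Tifab* (0.980), *Fcer1g* (0.970), *Fcgr3* (0.967), *Trim6* (0.965), and *Wdfy4* (0.964). Among the members themselves, *Mpo* and *Elane* (0.995), *S100a8* and *S100a9* (0.979), and *Csf1r* and *Adgre1* (0.972) ran together, while *Csf1r* and *Mpo* had 0.263 and *Lyz2* and *Mpo* 0.149.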

How the data were processed

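After sorting, the authors made libraries with a SMARTer stranded pico-input kit, aligned reads to GRCm38 with STAR 2.5.0a, and counted reads per gene with featureCounts 1.4.6-p3, per the submitters' processing notes. The strand setting and the treatment of reads with several alignments are not given in the sources used here. Each table that the authors deposited pairs the raw count of a gene with a rounded score, its count scaled by a factor of the library. All tests ran on the deposited counts, and the score served to derive the authors' factors for an alternative.

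The members and all gene lists were chosen with earlier results of these data known. Of 38127 gene identifiers, 37932 were found in GENCODE vM21, used for coordinates and exon lengths, and 39 names occur more than once. Tests used R 4.3.3 and edgeR 4.0.16 (TMM, filterByExpr, quasi-likelihood F test, Benjamini-Hochberg over all genes tested, adjusted p below 0.05), with the 9 E14.5 libraries in 1 fit and the 6 CD54+CD31- libraries in another. An SE is the log2 fold change divided by the square root of F. All 10 members passed the filter. A list gene could pass it through 1 group alone, where it was high. Its direction in a comparison with that group was then set in advance. Alternatives were DESeq2 1.42.0, its size factors, the authors' factors, no filter, at least 10 counts in every library, a replicate block, genes above 1% of a library left out, other sets of libraries, and each library left out. The script was tested on simulated counts. For the E18.5 libraries no source used here says whether they came from separate litters, so p-values measure the spread between libraries. Replicates of a group differed by more than counting noise (chi-square per degree of freedom 42.0 or more in each pair), so no library was counted as a copy. Each group has 3 libraries, and depth limits members with few counts such as S100a8 and S100a9 in P2 cells. Intervals from counts would cover counting error only. The floor of 3 counts was 0.0388 to 0.0944 CPM per library. Named genes were the members, the 4 genes of highest mean level of each list, the 5 genes most like 5 of the members, and genes at 0. Genes named because a count was 5 or fewer, or because they overlap or resemble a member, were chosen after their values were seen. Promoter windows came from RefSeq. Some genes that the rule would name are not reported here.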

Additional observations from a re-analysis of the deposited data

How the results depend on the processing

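Over the alternatives, the counts of all genes called stayed within 1.5 times in all 68 cases, as did the 80 member levels within 1 SD, and of the 674 member log2 fold changes 641 kept their direction and their side of the threshold, 14 reversed, 9 gained the call, and 10 lost it. P2 against CD31+ cells kept all 10 calls under each alternative. The limit is the number of libraries: CD54+CD31- replicate 2 at E14.5 and CD31+ replicate 3 each decide calls of the granulocyte genes. The causes of the changes were not tested.

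Members called higher in CD31+ than in CD54+CD31- cells were 0 to 4 with each library left out (0 without CD31+ replicate 3, when *Mpo* gave 2.58 with edgeR adjusted p = 0.0568 and *Elane* 2.24 with 0.0840; 1 without CD54+CD31- replicate 1; 4 without CD54+CD31- replicate 2). Members called higher at E18.5 were 1 to 3. Under the replicate block, 5 members were higher in CD31+ cells (*Spi1*, *S100a8*, and *S100a9* were added) and at E18.5 2 were higher (*S100a9* was added, at 2.85) and 1 was lower (*Spi1*, at -0.86), and it changed no other call of a member. Same-numbered libraries had correlations of their deviations from the group means of 0.00379 to 0.169, and no comparison had all 3 above 0.1, so the numbers were not taken to pair the samples. Log2 fold changes that reversed were all uncalled. For CD31+ against CD54+CD31- cells *Ptprc* was 0.0155 with the authors' factors, and -0.55 to 0.12 with each library left out (0.122 without CD54+CD31- replicate 3, 0.0813 without CD31+ replicate 1). Over age *Ptprc* was 0.0864 with at least 10 counts in every library, 0.000861 without the genes above 1% of a library, 0.171 with the authors' factors, and -0.33 to 0.359 with a library left out (0.153 without E14.5 replicate 3, 0.359 without E18.5 replicate 1). *Csf1r* was 0.00948 with the authors' factors and -0.45 to 0.136 with a library left out (0.0147 without E14.5 replicate 3, 0.136 without E18.5 replicate 1), and *Cd68* -0.49 to 0.0763 (the latter without E18.5 replicate 1). With a library left out *Mpo* was -1.77 to 1.44 and *Elane* -1.32 to 1.97, the highest of both without E14.5 replicate 2 (edgeR adjusted p = 0.111 and 0.135). The authors' factors shifted the median log2 fold change of all genes by -0.26 (P2 against CD54+CD31-), -0.37 (P2 against CD31+), 0.11 (CD31+ against CD54+CD31-), and 0.24 (age), and the all-library fit shifted age by -0.19.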

Other observations

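Genes of mast cells, basophils, and eosinophils were, like the granule genes of neutrophils, mostly higher in the CD31+ than in the CD54+CD31- gate. Of 13 listed genes 9 were tested at E14.5, and 8 were higher in CD31+ than in CD54+CD31- cells (median log2 fold change 3.46 against -0.03 over all genes), 8 in P2 lay below CD31+ cells by the test, and 4 below CD54+CD31- cells. Of all genes, 31.7% were higher in CD31+ than in CD54+CD31- cells. In P2, 39.4% of all genes were lower than in CD31+ cells and 36.1% lower than in CD54+CD31- cells, the latter near the count of the list. With only the P2 and CD54+CD31- libraries 3 genes of the list passed the filter. The others entered through the CD31+ libraries, so their direction against CD31+ cells was set in advance. *Prg2*, the eosinophil major basic protein, had 23.9, 22.5, and 68.1 CPM in CD31+ libraries and 0.0566, 5.76, and 0.469 in CD54+CD31- libraries at E14.5 (4.23, SE 1.00, edgeR adjusted p = 0.00361). *Epx*, eosinophil peroxidase, had 8.31, 9.99, and 26.3 against 0.141, 2.30, and 0.123 CPM (4.18, SE 0.87, edgeR adjusted p = 0.00171). For both, CD54+CD31- replicate 2 was again the highest library of its group and CD31+ replicate 3 of its own. *Hdc*, the histidine decarboxylase of mast cells and basophils, was 15.0 ± 5.09 CPM in CD31+ cells, and was the gene of the list that rose over age, from 1.98 ± 0.814 to 24.1 ± 16.0 CPM (3.81, SE 0.59, edgeR adjusted p = 0.00118). At E18.5 the list sum, most of it *Hdc*, was 43.7, 18.7, and 16.3 CPM in replicates 1, 2, and 3. It was highest in the library with the most lung epithelium RNA. The part of that RNA in the rise of *Hdc* was not tested. Over age 3 genes of the list were tested, and without E18.5 replicate 1, 1 of 4 was higher and 1 lower.

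RNA of the ligands of the myeloid receptors was measured in the same gates. *Csf1*, the main ligand of CSF1R, had 30.2 ± 1.89 CPM in CD54+CD31- cells at E14.5, 19.3 ± 4.04 in CD31+ cells, and 0.981 ± 0.376 in P2 cells (-4.94 for P2 against CD54+CD31-, SE 0.26, edgeR adjusted p = 5.84e-08), and 23.0 ± 1.15 at E18.5. *Il34*, the other ligand, was 0.242 ± 0.110 at E14.5 and 11.3 ± 2.00 CPM at E18.5 in the CD54+CD31- gate (5.68, SE 0.34, edgeR adjusted p = 2.96e-05). *Cxcl12*, the chemokine that holds myeloid cells and progenitors through CXCR4, had 169 ± 0.372 CPM in CD54+CD31- cells at E14.5 and 3.35 to 5.57 in the other E14.5 gates. Of the 12 cytokine and receptor genes tested, 1 was higher and 8 lower in P2 than in CD54+CD31- cells, 1 higher and 9 lower than in CD31+ cells, 6 higher and 3 lower in CD31+ than in CD54+CD31- cells, and 5 higher and 2 lower over age. The shares of all genes higher and lower were 33.8% and 36.1%, 34.3% and 39.4%, 31.7% and 34.0%, and 35.9% and 33.5% in the same order. *Csf2*, which rose over age, had 0 counts in the E14.5 libraries of the gate and entered through E18.5.

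Of 15 myeloid transcription factor genes tested, 11 were lower and 3 higher in P2 than in CD54+CD31- cells, against 36.1% and 33.8% of all genes. In P2 against CD31+ cells 12 were lower and 2 higher, against 39.4% and 34.3%. Those higher included *Ikzf1* (480.1 ± 24.8 CPM in P2 and 56.1 ± 15.7 in CD54+CD31- cells; 3.08, SE 0.21, edgeR adjusted p = 4.20e-07) and *Runx1* (179.9 ± 10.4 and 30.8 ± 8.31 CPM; 2.53, SE 0.19, edgeR adjusted p = 6.87e-07), which progenitors of several blood lineages use. CD31+ cells had 7 higher and 5 lower than CD54+CD31- cells, against 31.7% and 34.0% of all genes. Over age 6 rose and 2 fell, against 35.9% and 33.5%. The study lists *Ikzf1* too among genes higher in P2 than in CD324+ cells, from the same data.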
